A study of Mus musculus with 11 samples.

Results

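The 11 libraries of casein-elicited peritoneal neutrophils (PMNs) carry names of 2 numbering styles in the deposited expression table. In 5 of the 11, the number has 2 digits (WT 03, WT 08, FOXO3 KO 05, FOXO3 KO 06 and FOXO3 KO 09), and in the other 6 it has 1 digit (WT 1, WT 2, WT 3, FOXO3 KO 1, FOXO3 KO 2 and FOXO3 KO 3). The 5 two-digit libraries were compared with the 6 single-digit libraries, with genotype as a covariate, to describe which cell lineages and programs differed between them within a neutrophil preparation. A library was placed in its series by the style of the number alone and by no measured value. The comparison itself was chosen with earlier results of these data known. The labels number the libraries of each genotype consecutively and do not say what the numbering in the table stands for, so it is called here the numbering series.

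All 11 libraries were from C57BL/6 mice, either wild type (WT, 5 libraries) or homozygous FOXO3 knock-out littermates (FOXO3 KO, 6 libraries). The single-digit series held 3 WT and 3 FOXO3 KO libraries, and the two-digit series held 2 WT and 3 FOXO3 KO libraries. Every mouse was a young adult of either sex that had received intraperitoneal casein on consecutive days, and peritoneal cells were collected within hours of the second dose and separated on a density gradient. The knock-out lacked FOXO3 in all cells, so no library came from a neutrophil-restricted deletion. The study checked the neutrophil content of the preparation by flow cytometry for Ly6G, not by a sort, and other cells that settle in the same layer could remain. The study's methods describe RNA from several mice per genotype, a range that covers the number of libraries here, but the labels do not tie a library to an animal, so the p-values measure the spread between these libraries.

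Casein injected into the peritoneal cavity draws neutrophils out of the blood, and in the resting cavity of the mouse the resident cells are mainly large macrophages and B cells, many of the B-1 type, with fewer T cells and mast cells. Each lineage carries transcripts that the others lack, such as the B cell receptor chains Cd79a and Cd79b, the T cell receptor constant region Trac, or the complement component C1qb of tissue macrophages. Goblet cells and colonocytes of the intestinal epithelium make secreted proteins, among them the mucin Muc2, the lectin-like Zg16 and Lypd8, which keep bacteria away from the gut surface.

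Expression was given as TPM, a share of the transcripts in a library scaled to a fixed total, and the libraries summed to between 935140 and 952238 TPM. The depth of each library is unknown, since TPM keeps none. Genes at 1 TPM or more numbered 11102 to 12185 in a library. Genes above 0 TPM numbered 23562 to 24228 in the single-digit and 21138 to 22120 in the two-digit libraries, with no overlap. Foxo3 was at 7.61 to 11.7 TPM in the 5 WT and at 0.844 to 4.26 TPM in the 6 FOXO3 KO libraries, with no overlap between the genotypes, and its series difference was 0.18 on the log2 scale (SE 0.26, FDR 0.652). The sexes were not evenly spread over the series. Ddx3y, a gene of the Y chromosome, was at 18.0 to 20.2 TPM in WT 03, WT 08 and FOXO3 KO 09, at 42.9 TPM in FOXO3 KO 3, and at 0.264 TPM or less in the other 7 libraries. Xist, the RNA that silences the second X chromosome of females, was at 27.6 TPM or more in those 7 libraries, at 4.29 TPM in FOXO3 KO 3 and at 0.115 TPM or less in WT 03, WT 08 and FOXO3 KO 09. Libraries with Ddx3y at 18.0 TPM or more were therefore 3 of the 5 two-digit and 1 of the 6 single-digit libraries. That single-digit library, FOXO3 KO 3, carried both Ddx3y and Xist, so its pattern was mixed. The part of sex was tested only by adding the level of Xist as a covariate.

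Of the two-digit libraries, 2 stood apart from the rest. FOXO3 KO 05 had the highest sums of B cell, ribosomal protein and heat shock genes of the 11 libraries, and WT 03 had macrophage and platelet sums within or above the range of the single-digit series. On the first principal component, which held 44.9% of the variance, the single-digit libraries lay between -48.6 and -27.3, WT 03 lay at 15.2, FOXO3 KO 09 at 30.3, WT 08 at 49.4, FOXO3 KO 06 at 59 and FOXO3 KO 05 at 76.3. The series did not overlap on this component.

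Of the 12195 genes tested, whose mean was 1 TPM or more, 1007 (8.26%) were higher and 1429 (11.7%) were lower in the two-digit libraries, called at FDR < 0.05 with a log2 difference over 0.5 on the log2(TPM + 1) scale. The groups did not overlap for 6.15% of the tested genes in the higher and 6.86% in the lower direction. The median difference over all tested genes was -0.15, and it was near 0 (0.00) when TPM were divided by size factors, under which 1584 genes were higher and 1030 lower. The share of higher genes among those called moved accordingly, from 41.3% to 60.6% with size factors, 52.7% with quantile normalization, 29.8% with sample weights and 50.9% after rescaling without ribosomal protein genes and genes of other cells. With the number in the column name as a replicate block, which joins WT and FOXO3 KO libraries of the single-digit series, 610 genes were higher and 500 lower. Without WT 03 there were 987 higher and 2655 lower genes, without WT 08 there were 671 lower genes, without FOXO3 KO 2 there were 791 lower genes, and without FOXO3 KO 05 there were 822 higher and 1022 lower genes. With Xist as a covariate, 1222 genes were higher and 1523 lower.

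Neutrophil transcripts dominated both series. Of 24 genes of mature PMNs, all tested, 0 were higher and 1 was lower, and their median difference was -0.05 against -0.15 over all genes (0.12 with size factors). Their summed level was 115600 to 246700 TPM in the single-digit libraries (median 178300) and 138600 to 275500 TPM in the two-digit libraries (median 200400), and these ranges overlapped. S100a8, a calcium-binding protein that fills the neutrophil cytosol, was at 40230 to 83490 TPM in the single-digit libraries (median 57720) and at 45020, 88860, 53980, 54920 and 66200 TPM in WT 03, WT 08 and FOXO3 KO 05, 06 and 09. Its series difference was 0.03 (SE 0.25, FDR 0.939). Ly6g, the surface marker used in the study's flow cytometry, ranged from 29.3 to 219 TPM in the single-digit and from 54.1 to 139 TPM in the two-digit libraries and was not called (FDR 0.816). The member called was Csf3r, the receptor of the granulocyte growth factor G-CSF. It was at 390 to 779 TPM (median 500) in the single-digit libraries and at 308, 344, 193, 385 and 253 TPM in the two-digit libraries, a difference of -0.81 (SE 0.22, FDR 0.0238) with no overlap. The call was lost with the replicate block (FDR 0.0613), with size factors, and without FOXO3 KO 2, WT 08 or FOXO3 KO 05. Genes of the specific and gelatinase granules, which hold lactoferrin and gelatinase, had 0 of 13 called and a median of -0.30. Of the azurophil granule genes, 4 of 9 were tested and 1 was lower, and of the 6 NADPH oxidase subunits 1 was lower, and with the replicate block 0 were lower in either list.

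Of the 4 marker genes given with the comparison, 3 were higher in the two-digit libraries. Cd79a, the signalling chain of the B cell receptor, was at 3.93 to 21.8 TPM (median 13.2) in the single-digit libraries and at 166, 182, 614, 291 and 156 TPM in WT 03, WT 08 and FOXO3 KO 05, 06 and 09. The lowest two-digit library exceeded the highest single-digit library, and the difference was 4.36 (SE 0.50, FDR 0.000227). Lypd8, secreted by colonocytes, was listed at 0 in all 6 single-digit libraries and was at 11.5, 13.8, 11.7, 16.5 and 20.7 TPM in the two-digit libraries, with a difference of 3.94 (SE 0.17, FDR 1.22e-07). Zg16, a goblet cell lectin, was listed at 0 in 3 single-digit libraries and reached at most 0.377 TPM in the others, and it was at 10, 13, 11.5, 15.5 and 13.6 TPM in the two-digit libraries, with a difference of 3.56 (SE 0.17, FDR 2.44e-07). For each of these genes, every two-digit library exceeded every single-digit library of its genotype, and the exact permutation test within genotype gave the smallest p its 200 arrangements allow (two-sided p = 0.005). The markers were chosen with earlier results of these data known, so these p-values are a description and no independent support. Lypd8 and Zg16 also passed the filter of 1 TPM only through the two-digit libraries, so their FDRs are likewise a description. C1qb went the other way and was not called. It was at 161 to 290 TPM (median 195) in the single-digit libraries and at 311, 91.1, 78.5, 49.7 and 90.9 TPM in the two-digit libraries, so that WT 03 lay above every single-digit library and the other 4 lay below all of them. Its difference was -0.92 (SE 0.32, FDR 0.06), with an exact permutation p of 0.05, and without WT 03 it was -1.32 (FDR 0.00132).

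**Figure D1:**
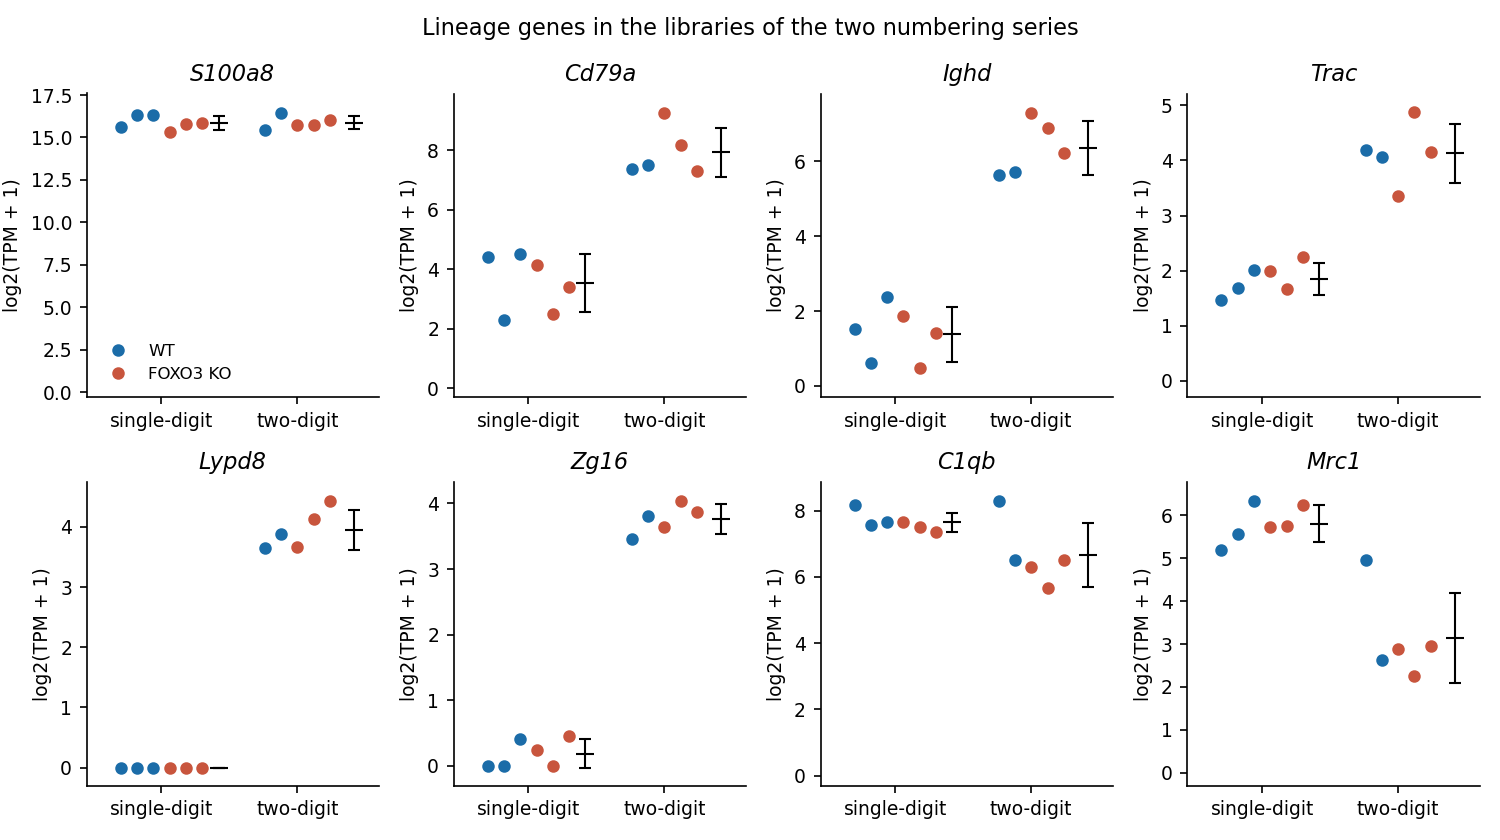
Each point is 1 library, on the log2(TPM + 1) scale, with WT in blue and FOXO3 KO in red, and the black marks give the mean and SD of each numbering series. S100a8 overlaps between the series, and Cd79a, Ighd, Trac, Lypd8 and Zg16 do not overlap and are higher in the two-digit libraries. Mrc1 is lower in all of the two-digit libraries. C1qb of WT 03 lies above every single-digit library, and C1qb of the other two-digit libraries lies below all of them.

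B cell transcripts were higher in the two-digit libraries almost throughout. Of 24 listed B cell genes, all 24 were tested, 4 of these with a mean under 1 TPM in the single-digit series, and 23 were higher with 0 lower, against 8.26% of all genes higher. Their median difference was 3.25, and for 21 of the 24 the series did not overlap. Their summed level was 337.7 to 1773 TPM (median 690.4) in the single-digit and 2707 to 11450 TPM (median 4876) in the two-digit libraries. These sums did not overlap, and they varied 5.25-fold within the single-digit and 4.23-fold within the two-digit libraries, with WT 2 and FOXO3 KO 2 lowest and FOXO3 KO 05 highest. In bulk libraries, more cells of a type and more RNA per cell cannot be told apart.

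Ighd, the constant region of the IgD receptor that mature naive B cells carry, was at 0.398 to 4.20 TPM (median 1.77) in the single-digit libraries and at 49.0, 51.8, 157, 118 and 73.3 TPM in the two-digit libraries. The ratio of the means was 47.5, and the log2 difference was 4.94 (SE 0.39, FDR 1.87e-05). Vpreb3, a surrogate light chain relative found in B cells and their precursors, was at 0 to 0.592 TPM in the single-digit libraries and at 9.88, 12.1, 18.9, 22.8 and 16.6 TPM in the two-digit libraries (difference 3.63, FDR 2.71e-07). Cr2, the complement receptor CD21 of follicular and marginal zone B cells, was at 0.483 TPM or less in the single-digit libraries and at 4.21 to 10.5 TPM in the two-digit libraries (difference 2.52, FDR 0.000105). Vpreb3 and Cr2 passed the filter of 1 TPM only through the two-digit libraries, so their FDRs are a description. Fcmr, the Fc receptor for IgM, differed by 3.97 (FDR 3.33e-05), Cd79b by 3.97 (FDR 0.000322) and Ly6d, which marks B lymphoid commitment, by 4.45 (FDR 0.000279), all without overlap.

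Ighm, the constant region of IgM, was already abundant in the single-digit series, at 53.8 to 483 TPM (median 180), and was at 776, 1410, 3319, 1911 and 708 TPM in the two-digit libraries (difference 3.14, FDR 0.00482). Igkc, the kappa light chain constant region, was at 69.2 to 1049 TPM (median 247) against 1066, 2371, 4842, 3182 and 1015 TPM, so WT 1 overlapped with FOXO3 KO 09 (difference 3.23, FDR 0.00889). The list member that was not called was Siglecg, an inhibitory receptor of B cells that was at 11 to 26 TPM and 15.3 to 47.6 TPM in the respective series (difference 0.36, FDR 0.445). Cd37, a tetraspanin shared with other leukocytes, had a smaller difference of 0.71 (FDR 0.037), and this call was lost with the replicate block (FDR 0.0976) and on leaving out any 1 of 6 libraries.

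The immunoglobulin V segments, which encode the antigen-binding part of antibody chains, moved with the constant regions. Of 346 segments, 94 were at 0 in all libraries and 169 were tested, 87 of them with a mean under 1 TPM in the single-digit series. The call was higher for 150 and lower for 1, Ighv1-41, which lost its call with the replicate block, and over all 346 segments 140 were higher without overlap, against 3.75% of all genes with a value above 0. Segments at 1 TPM or more numbered 24 to 101 in the single-digit and 168 to 209 in the two-digit libraries. Igkv14-126 was the most abundant segment in each of the 11 libraries. It was at 32.9 to 828 TPM (median 97.7) in the single-digit libraries and at 632, 2783, 2223, 2278 and 321 TPM in the two-digit libraries, and the series overlapped through WT 1. Its difference was 3.47 (FDR 0.0124, and FDR 0.0682 with the replicate block), and its share of all V segment TPM was 16.8% to 41.9% and 12.5% to 45.3% in the respective series. Kappa segments made up 57.5% to 72.5% and 60.3% to 69.9% of the V segment TPM, so the balance of chains overlapped.

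The 60 bases at the 3′ end of the framework and start of the third complementarity-determining region are printed for Igkv14-126, the segment that led in every library, beside its close relative Igkv14-111, to show how much sequence separates neighbouring segments to which reads were assigned. Both are on the plus strand of chromosome 6 (GRCm38), Igkv14-126 at chr6:67896578-67896637 and Igkv14-111 at chr6:68256805-68256864, and capitals mark the 12 bases at which they differ in this window. Over 358 aligned bases they differ at 30.
Igkv14-126: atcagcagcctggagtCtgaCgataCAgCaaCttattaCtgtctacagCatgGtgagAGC
Igkv14-111: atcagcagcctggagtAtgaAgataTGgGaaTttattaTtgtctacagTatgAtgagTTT

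Genes of antibody-secreting cells were higher in part. Of 13 listed genes, 9 were tested, 3 of these with a mean under 1 TPM in the single-digit series, Ighg2b among them, which reached the filter through the two-digit libraries. Of the 9, 5 were higher and 0 lower, against 8.26% of all genes higher, and over the list 6 were higher without overlap. The summed level overlapped, at 212.6 to 252.3 TPM and 147 to 308.9 TPM, and most of it was Xbp1. Irf4, a transcription factor of activated B and plasma cells, was at 2.18 to 6.12 TPM against 16.4 to 43.1 TPM (difference 2.50, FDR 0.000338), and Ighg2b, a switched IgG constant region, was at 0.381 TPM or less against 4.22 to 11.7 TPM (difference 2.42, FDR 0.000105). Xbp1, the transcription factor of secretory cells that neutrophils also express, was at 160 to 209 TPM against 88.0 to 225 TPM and was not called (FDR 0.176).

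MHC class II presentation genes rose in part. Of the 9 genes in the table, 8 were tested and 7 were higher, against 8.26% of all genes. Their median was 1.91, and their sums of 113.8 to 291.1 TPM and 304.4 to 850 TPM did not overlap. H2-Ob, a chain of the H2-O dimer that restrains peptide loading in B cells, was at 1.05 to 3.19 TPM in the single-digit libraries and at 20.9, 24.4, 78.6, 34.1 and 14.5 TPM in the two-digit libraries (difference 3.37, FDR 0.000252). Its partner H2-Oa differed by 3.26 (FDR 4.14e-05) and Ciita, the transactivator of class II genes, by 2.13 (FDR 0.000561). H2-Ab1, a class II chain of all antigen-presenting cells, differed by 1.97 (FDR 0.00581), and Cd74, the invariant chain, by 0.93 with overlapping series (FDR 0.0441, and FDR 0.132 with the replicate block).

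T cell transcripts were also higher, at a lower level. Of 17 listed genes, 13 were tested, 4 of them with a mean under 1 TPM in the single-digit series, and 13 were higher, against 8.26% of all genes. Over all 17, 15 were higher without overlap, against 3.75% of all genes with a value above 0. The sums were 22.0 to 42.4 TPM (median 34.2) and 108 to 171 TPM (median 114). Trac was at 1.75 to 3.73 TPM (median 2.61) in the single-digit libraries and at 17.3, 15.8, 9.24, 28.4 and 16.9 TPM in the two-digit libraries (difference 2.27, SE 0.25, FDR 0.000184). FOXO3 KO 05, which was highest for the B cell genes, was lowest for Trac among the two-digit libraries. Tcf7, a transcription factor of naive T cells, differed by 2.10 (FDR 6.31e-05), Lck, the kinase of the T cell receptor, by 1.83 (FDR 7.62e-05), and Cd8b1, a chain of the CD8 co-receptor, by 1.90 (FDR 0.000116), all without overlap. Cd8b1 had a mean under 1 TPM in the single-digit series and passed the filter through the two-digit libraries, so its FDR is a description. Segments of the T cell receptor V genes summed to 4.75 to 15.3 TPM and 49.4 to 79.4 TPM. Genes of NK cells did not share this direction, with 1 higher and 2 lower of 10 tested and a median of -0.38. Over all genes 8.26% were higher and 11.7% lower. Klra8, an activating receptor of NK cells, was at 2.27 to 5.97 TPM against 0.531 to 2.23 TPM (difference -1.06, FDR 0.0155), and more than 50% of its 31-base words also lie in other genes, so its reads are shared with its relatives. Its call was lost with the replicate block (FDR 0.175) and without WT 08, and with the block 0 NK cell genes were higher and 0 lower.

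**Figure D2:**
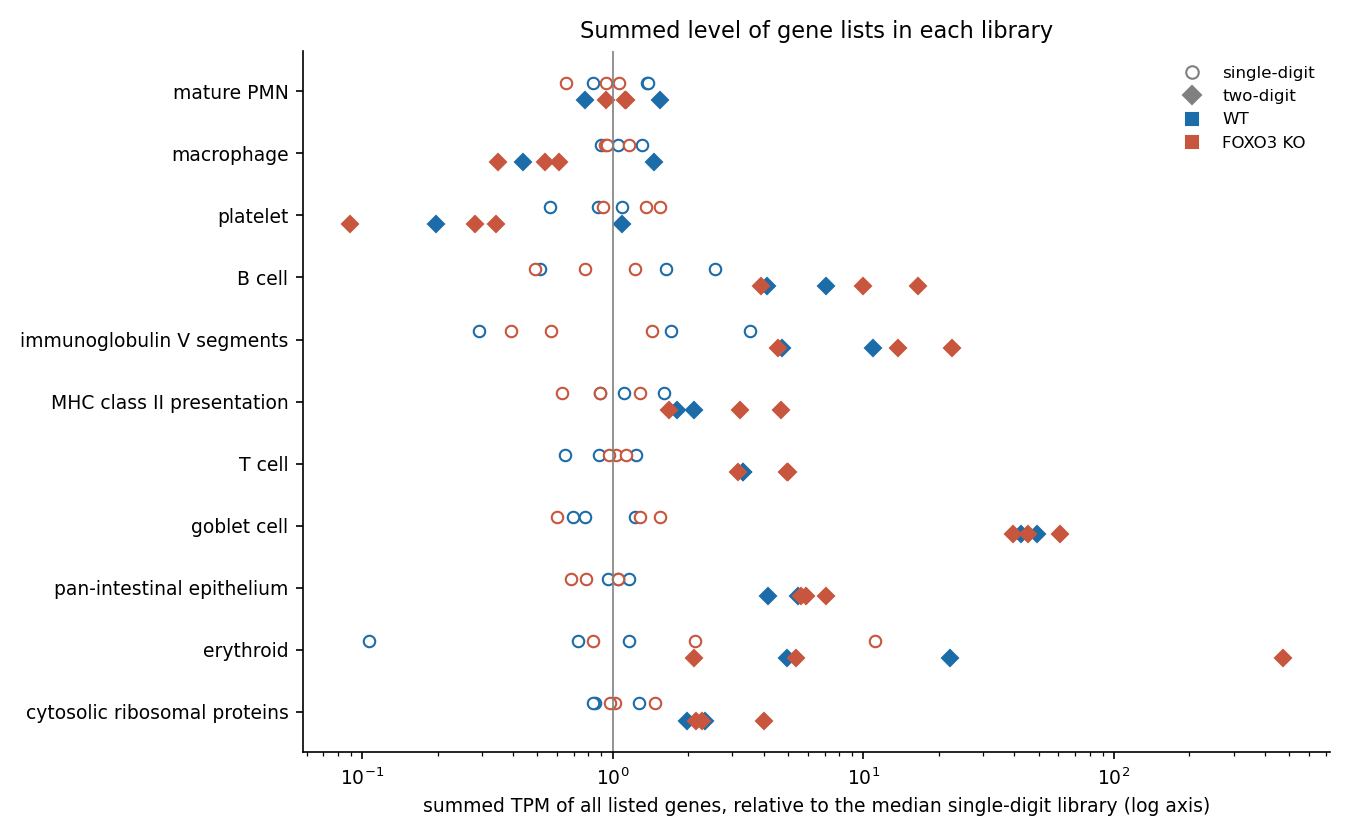
Each point is 1 library, and the axis is the summed TPM of all genes of a list divided by the median single-digit library, on a log axis, with open circles for single-digit and diamonds for two-digit libraries. B cell, immunoglobulin V, T cell, goblet cell and pan-intestinal sums and the ribosomal proteins separate the series, the mature PMN sum does not, and WT 03 lies to the right of the other two-digit libraries for macrophage and platelet genes.

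Goblet cell transcripts were near 0 in the single-digit and present in the two-digit libraries, and most genes expressed throughout the intestinal epithelium were higher. For 10 of 12 goblet cell genes, every two-digit library lay above every single-digit library, and the 5 that were tested all had a mean under 1 TPM in the single-digit series, so they reached the filter through the two-digit libraries. The goblet cell sum was 0.458 to 1.18 TPM (median 0.761) and 30.2 to 46.6 TPM (median 34.7). It varied 1.54-fold among the two-digit libraries, against 4.23-fold for the B cell sum. Of 20 genes expressed throughout the intestinal epithelium, 18 lay above and 1 lay below the single-digit range in every two-digit library, and of 14 colonocyte genes 9 lay above it, each against 3.75% higher and 4.86% lower of all genes with a value above 0. Of the 6 colonocyte genes tested 3 were higher, and the colonocyte sum overlapped between the series, at 86.69 to 106 TPM and 69.83 to 116 TPM. Most of that sum was Car4, Saa1 and Ceacam1, which were not called. Their means were 21.36, 17.53 and 57.54 TPM in the single-digit and 19.43, 9.592 and 40.5 TPM in the two-digit libraries.

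Muc2, the mucin of the gut mucus layer, was at 0 to 0.0832 TPM in the single-digit libraries and at 3.68, 4.07, 2.86, 5.96 and 3.76 TPM in the two-digit libraries (difference 2.25, FDR 1.87e-05). Spink4, a goblet cell protease inhibitor, was listed at 0 in all single-digit libraries and was at 8.40, 9.65, 5.61, 13.4 and 6.74 TPM in the two-digit libraries (FDR 2.61e-06). Agr2, a disulfide isomerase needed for mucin folding, was likewise listed at 0 and was at 4.31 to 5.64 TPM (FDR 1.26e-06), and the trefoil peptide Tff3 was listed at 0 and was at 0.853 to 3.58 TPM (FDR 0.000418). All 4 goblet cell genes were absent or close to 0 in WT and FOXO3 KO libraries of the single-digit series and present in both genotypes of the other.

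Several structural and secreted genes of the wider epithelium were higher as well, with an exception among the pan-intestinal genes. Of the 6 tested pan-intestinal genes 4, and of the 6 tested colonocyte genes 3, had a mean under 1 TPM in the single-digit series and passed the filter through the two-digit libraries, Krt8, Epcam and Guca2a among them, so their values are a description. Krt8, a keratin of simple epithelia, was at 0.368 TPM or less and at 3.45 to 5.88 TPM in the respective series (difference 2.23, FDR 1.87e-05). Epcam, an adhesion molecule of epithelial cells, was at 0.248 to 1.23 TPM and 2.29 to 6.38 TPM (difference 1.83, FDR 0.000706). Lgals4, a gut galectin, was at 1.54 to 3.49 TPM and 6.71 to 11.9 TPM (difference 1.54, FDR 0.00044), and Guca2a, the intestinal peptide guanylin, at 0.274 to 0.648 TPM and 2.72 to 6.17 TPM (difference 1.83, FDR 0.000116). Cdh1, the epithelial cadherin, was the member with the opposite order. It was at 1.28 to 2.73 TPM in the single-digit and at 0.429 to 1.23 TPM in the two-digit libraries and was not called (difference -0.52, FDR 0.0754). Sprr2a2, a small proline-rich protein of barrier epithelia, was at 0.491 TPM or less in the single-digit libraries and at 16.4, 23.4, 15.8, 25.5 and 24.0 TPM in the two-digit libraries (difference 4.27, FDR 1.22e-07), but 97.8% of its 31-base words lie in other genes, so it cannot be told apart from its near copies. Sprr2a2 too passed the filter only through the two-digit libraries, so its FDR is a description.

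Few genes of other gut cell types reached the filter. Of 16 genes of small intestinal enterocytes, 1 was tested and was lower (0 with the replicate block), and of 8 Paneth cell genes and 15 enteroendocrine, tuft and stem cell genes 1 each was tested and 0 were called. Below the filter, 5 of the 16 enterocyte genes, 3 of the 8 Paneth cell genes and 1 of the 15 others lay above the single-digit range in every two-digit library, against 3.75% of all genes with a value above 0. The sums overlapped, at 33.66 to 68.28 TPM and 13.07 to 68.62 TPM for enterocyte genes and at 24.64 to 127.5 TPM and 14.82 to 69.34 TPM for Paneth cell genes. Most of the enterocyte sum was Anpep, the 1 gene tested, with means of 53.58 TPM in the single-digit and 24.09 TPM in the two-digit libraries. Most of the Paneth cell sum was Lyz1, with means of 74.54 and 34.93 TPM. Each sum therefore mainly follows 1 gene and does not describe its list.

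Lists for other abdominal cells also had few members at 1 TPM, with 0 of 1 tested called for mesothelium, 0 of 1 for pancreatic acinar cells, 1 of 3 lower for fibroblasts (0 with the block) and 0 of 1 for endothelium. Smooth muscle genes, which encode contractile proteins, separated the series at a low level. Of 8 listed, 7 were in the table and 0 were tested, and 3 were higher without overlap, against 3.75% of all genes with a value above 0. The sum of the list was 0.889 to 1.873 TPM in the single-digit and 2.145 to 4.806 TPM in the two-digit libraries, with no overlap.

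Macrophage transcripts had the opposite direction, and WT 03 was the exception. Of 21 listed genes, 17 were tested, and 7 were lower and 1 higher, against 11.7% of all genes lower and 8.26% higher, with a median of -1.14. The sums were 864.3 to 1259 TPM (median 965.1) in the single-digit libraries and 1415 TPM in WT 03, 423.9 TPM in WT 08 and 518.1, 336 and 588.3 TPM in FOXO3 KO 05, 06 and 09, so the groups overlapped. The number of lower genes was 15 without WT 03, 3 without WT 08 and 3 with the replicate block.

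Mrc1, the mannose receptor, was at 35.4 to 79.5 TPM (median 52.6) in the single-digit libraries and at 30.1, 5.20, 6.36, 3.79 and 6.73 TPM in the two-digit libraries (difference -2.63, SE 0.41, FDR 0.00136). Cd163, the scavenger receptor for haemoglobin, was at 4.90 to 20.3 TPM and 0.412 to 2.46 TPM (difference -2.56, FDR 0.000985). Neither gene overlapped between the series, and both calls were kept with the replicate block and on leaving out each library in turn. C1qc, a partner of C1qb, differed by -1.14 (FDR 0.034), and this call was lost with the replicate block (FDR 0.114) and on leaving out any 1 of 8 libraries. Marco, a scavenger receptor of peritoneal macrophages, differed by -2.31 with overlap (FDR 0.0144, and FDR 0.0668 with the block). Adgre1, which encodes F4/80, and Csf1r, the receptor that keeps macrophages alive, were not called (FDR 0.35 and 0.103), and each was called lower without WT 03. Icam2 was the macrophage list's higher gene, at 3.73 to 7.82 TPM and 15.9 to 53.0 TPM (difference 2.00, FDR 0.00117), and besides resident peritoneal macrophages it is expressed by lymphocytes and endothelium.

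Platelet, monocyte, dendritic cell and eosinophil genes had few calls, and most were lost with the replicate block. Of 4 platelet genes tested, 2 were lower. Pf4, a platelet chemokine, was at 193 to 528 TPM (median 341) in the single-digit libraries and at 384, 67.2, 105, 30.4 and 112 TPM in the two-digit libraries (difference -1.74, FDR 0.0347), with WT 03 inside the single-digit range. Its call and that of Ppbp (difference -2.27, FDR 0.0202), another platelet chemokine, were lost with the replicate block (FDR 0.0976 and 0.0829), and Pf4 lost it on leaving out any 1 of 7 libraries and Ppbp on leaving out FOXO3 KO 2, WT 08 or FOXO3 KO 05. Of 9 monocyte genes 1 was lower, Fn1, which encodes fibronectin (difference -2.53, FDR 0.0247, and FDR 0.0953 with the block). Of 9 dendritic cell genes 2 were lower, among them Batf3, a transcription factor of cross-presenting dendritic cells, at 6.60 to 13.2 TPM and 2.05 to 5.72 TPM (difference -1.23, FDR 0.00467). Of 8 eosinophil genes 1 was lower, Cd244a, a SLAM family receptor also found on NK cells (difference -1.26, FDR 0.0139, and FDR 0.0599 with the block). For monocyte and eosinophil genes these shares lie near the 11.7% of all genes that were lower, and with the block 0 platelet, 0 monocyte, 0 eosinophil and 1 dendritic cell gene were lower.

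Mast cell proteases and globin varied by library. Of 9 mast cell and basophil genes tested, 2 were higher, against 8.26% of all genes, and the uncalled members ranged from -0.07 for Kit to 1.4 for Cma1. Mcpt4, a chymase of connective tissue mast cells, was at 1.81 to 19.2 TPM and at 28.1, 25.4, 83.2, 29.0 and 29.8 TPM (difference 2.15, FDR 0.0105), and the tryptase Tpsb2 differed by 1.58 (FDR 0.0336, lost with the block, which left 1 higher). Hbb-bs, an adult beta globin of red blood cells, was at 0.741 to 86.8 TPM in the single-digit and at 191, 43.8, 50, 17.9 and 4043 TPM in the two-digit libraries and was not called (FDR 0.0705). The erythroid sum was 8375 TPM in FOXO3 KO 09 alone, and 0 of 5 erythroid genes were called.

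**Figure D3:**
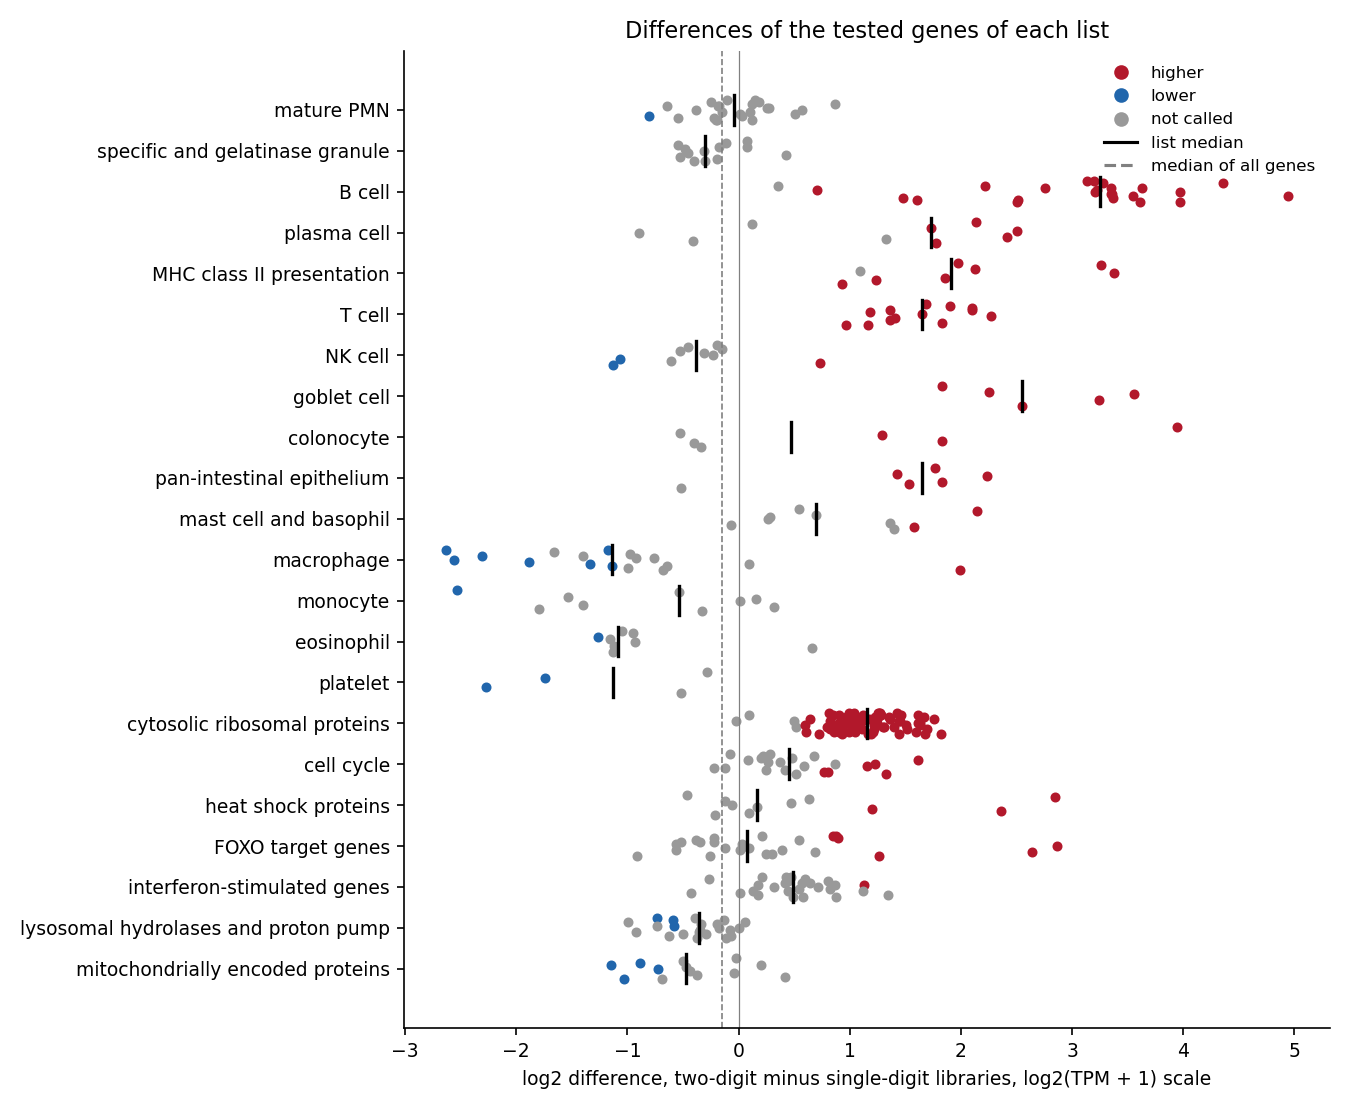
Each dot is a tested gene of the list named on the left, placed at its log2 difference between two-digit and single-digit libraries, in red where higher, blue where lower and grey where not called. The black tick is the list's median, and the dashed line is the median over all genes, -0.15. B cell, T cell and goblet cell dots and the ribosomal proteins lie to the right, and macrophage dots mostly to the left.

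Outside the lineage genes, the genes of cytosolic ribosomal proteins differed as a block. All 76 were tested, and 72 were higher and 0 lower, against 8.26% of all genes, with a median of 1.16 and no overlap for 62. Their sum was 27670 to 49280 TPM (median 33280) in the single-digit libraries and 77350, 65750, 133200, 75860 and 71620 TPM in the two-digit libraries, and the ratio of the means was 2.38. The genes that were not called were Rpl5, Rps14, Rps12 and Rps2, chosen for mention after their values were seen. Among genes with less than 10% of their 31-base words in other genes, 9 ribosomal protein genes were called, and genes over that limit were not in that comparison. How many ribosomal protein genes lay under the limit is not given here, so the 9 cannot be read as a share of the 76. Under the normalization alternatives 69 to 74 were higher. With the replicate block 65 were higher, with FOXO3 KO libraries alone 29, and with WT libraries alone 1.

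Rps28, a protein of the small subunit, was at 308 to 579 TPM (median 393) in the single-digit libraries and at 1457, 1170, 2321, 1440 and 1345 TPM in the two-digit libraries (difference 1.82, SE 0.21, FDR 0.000252). Rpl10a, of the large subunit, was at 78.9 to 160 TPM and 334 to 695 TPM (difference 1.76, FDR 0.000273), and Rps27 was at 1224 to 1532 TPM and 3566 to 7071 TPM (difference 1.67, FDR 0.000183). None of the 3 overlapped, and FOXO3 KO 05 was highest for each. Rpl5, in contrast, was at 8.75 to 29.5 TPM and 7.86 to 22.2 TPM (difference -0.02, FDR 0.97), and its sign turned under several alternatives.

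Copies of ribosomal protein and other housekeeping genes without introns, the processed pseudogenes, showed differences of another form. There were 7 genes, 5 processed pseudogenes and 2 microRNA genes, at 5 TPM or more in every single-digit library and under 0.5 TPM in every two-digit library, and for all 7 each 31-base word also lies in another gene. Rps13-ps2 was at 82.8 to 147 TPM (median 113) in the single-digit libraries and was listed at 0 in all 5 two-digit libraries (difference -6.82, FDR 1.62e-09). Rps13-ps2 thus passed the filter only through the single-digit libraries, so its FDR is a description. Rps6-ps4 was at 79.1 to 270 TPM (median 116) and at 0.00216 TPM or less, and Gm10221, a copy of Atp5l, at 46.2 to 124 TPM and at 0.000221 TPM or less. Gm9843 was at 45.5 to 116 TPM and listed at 0 in every two-digit library.

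The parent genes did not all move in the opposite direction. Rps13 itself was at 350 to 463 TPM and at 782 to 1466 TPM (difference 1.22, FDR 0.000741), and Rps6 at 312 to 526 TPM and 931 to 1883 TPM (difference 1.52, FDR 0.000439). Added to its pseudogene, Rps13 rose from a mean of 515.6 to 969.2 TPM, 1.88-fold, and Rps6 with Rps6-ps4 from 554.1 to 1222 TPM, 2.21-fold. Over all 76 genes and the 925 ribosomal protein pseudogenes together the ratio of the means was 2.25, against 2.38 for the genes alone. Atp5l, a subunit of the mitochondrial ATP synthase, was at 254.7 to 411.8 TPM and 278 to 489 TPM and was not called (difference 0.26, FDR 0.336). Rps13-ps1, another copy, had the opposite order, with 0 to 3.43 TPM in the single-digit libraries and 3.02, 18.1, 24.4, 19.0 and 20.8 TPM in the two-digit libraries (difference 2.63, FDR 0.00134).

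The sequences are printed to show how alike parent and copy are, since a read from a shared stretch matches both. Each line gives 60 bases on the sense strand, from coding exons of the parent mRNA or from the pseudogene (GRCm38), and capitals mark bases that differ from the parent. Rps13-ps2 (chr7:88530459-88530518, minus strand) matches Rps13 at all 453 aligned bases. Rps13-ps1 (chr8:87048100-87048159, plus strand) differs from Rps13 at 11 of 532 aligned bases, 2 of them in this window. Rps6-ps4 (chr2:75191420-75191479, minus strand) matches Rps6 at all 750 aligned bases, and Gm10221 (chr5:24581679-24581738, minus strand) matches Atp5l (chr9:44914680-44914739, minus strand) at all 309.
Rps13: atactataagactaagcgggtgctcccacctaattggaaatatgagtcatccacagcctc
Rps13-ps2: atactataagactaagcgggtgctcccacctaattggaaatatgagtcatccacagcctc
Rps13-ps1: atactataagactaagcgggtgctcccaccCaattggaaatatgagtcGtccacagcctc
Rps6: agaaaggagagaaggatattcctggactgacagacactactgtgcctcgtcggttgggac
Rps6-ps4: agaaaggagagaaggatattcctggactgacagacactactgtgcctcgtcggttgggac
Atp5l: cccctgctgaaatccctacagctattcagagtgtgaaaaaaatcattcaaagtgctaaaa
Gm10221: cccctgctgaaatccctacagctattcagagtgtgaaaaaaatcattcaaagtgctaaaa

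**Figure D4:**
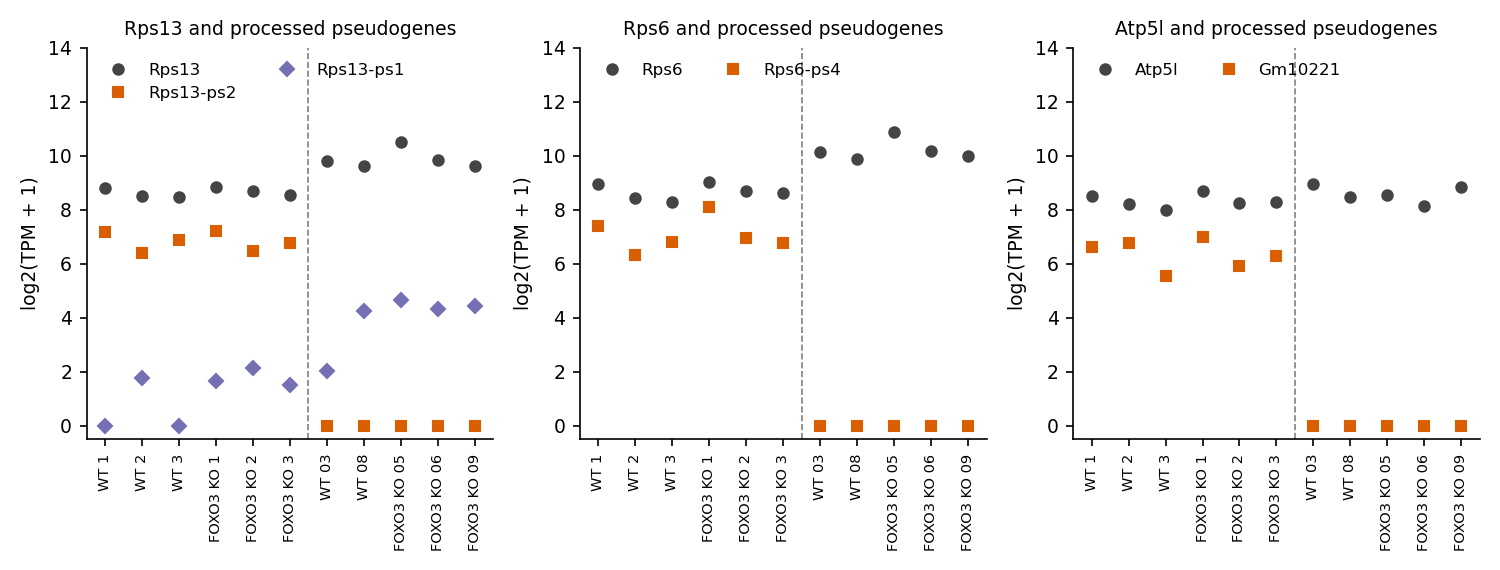
Each point is 1 library, on the log2(TPM + 1) scale, for 3 parent genes and their processed pseudogenes, with the single-digit libraries left and the two-digit libraries right of the dashed line. Rps13-ps2, Rps6-ps4 and Gm10221 fall to 0 or near 0 in all two-digit libraries, while their parents stay level (Atp5l) or rise (Rps13 and Rps6).

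Such features made up part of the lower genes. Of 429 tested pseudogenes, 117 (27.3%) were lower and 39 (9.09%) higher, and of 154 tested loci that the annotation classes as awaiting experimental evidence (TEC), 76 (49.4%) were lower. Of 734 small RNA genes 111 (15.1%) were lower, and of 10004 protein-coding genes 1008 (10.1%) were lower and 722 (7.22%) higher. Over all genes tested, 8.26% were higher and 11.7% lower. Among antigen receptor segments, 182 of 218 were higher. A mean under 1 TPM in the single-digit series was found for 87 of the 169 tested immunoglobulin V segments. The same held for 6 of the 8 tested T cell receptor V segments. These segments passed the filter through the two-digit libraries, so the share of the class is a description. Protein-coding genes with a total exonic length of up to 1500 bases were higher in 11.9% and lower in 7.28%, and those over 6000 bases were higher in 4.3% and lower in 14.3%. The median exonic length was 3201 bases for the higher, 5644.5 for the lower and 4425 for the uncalled protein-coding genes.

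**Figure D5:**
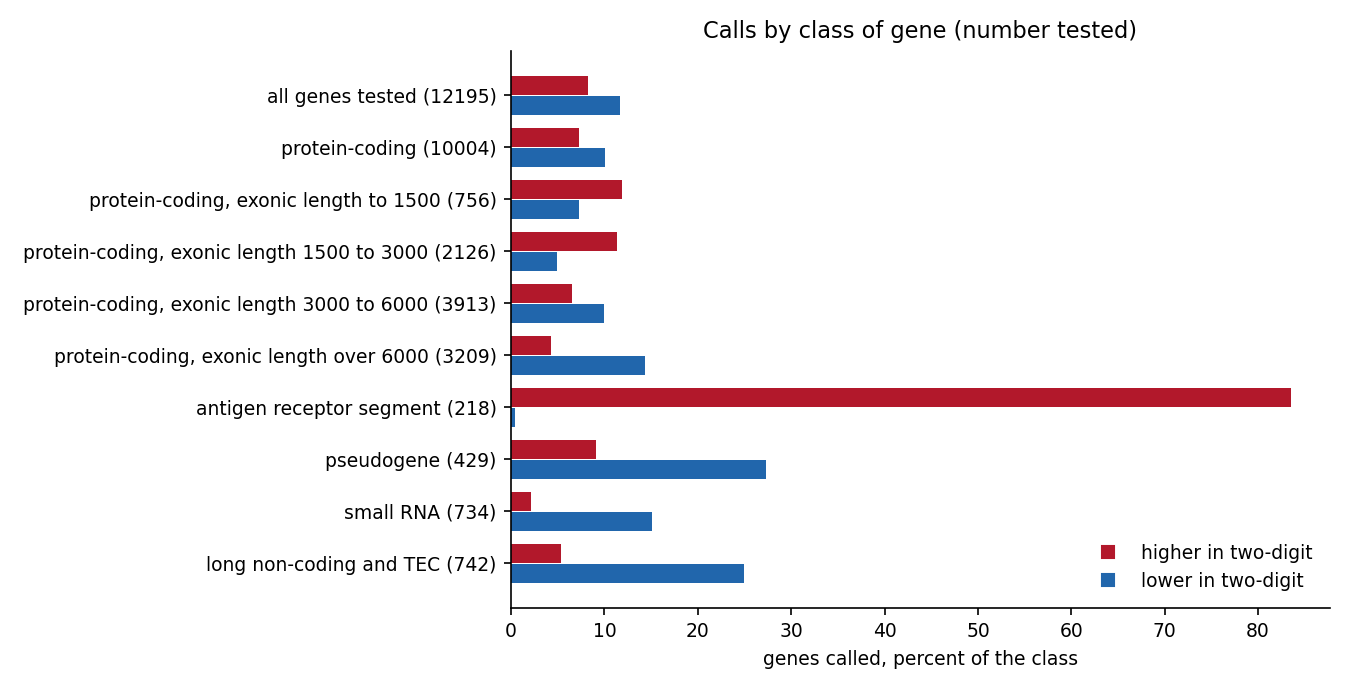
Bars give the percent of the tested genes of each annotated class that were called higher (red) or lower (blue) in the two-digit libraries, with the number tested in brackets. Antigen receptor segments were mostly higher, and many of them passed the filter only through the two-digit libraries. The share of lower genes grew from 4.89% at 1500 to 3000 bases to 14.3% above 6000 bases of exonic length.

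Among other programs, some DNA replication and heat shock genes were higher. Of 22 cell cycle genes 6 were higher (4 with the replicate block) and 0 lower, against 8.26% of all genes higher, with a median of 0.45. The uncalled members ranged from -0.22 for Mki67 to 0.87 for Stmn1. The 6 included Mcm2, Mcm5, Mcm6 and Mcm7, subunits of the replicative helicase, which differed by 1.15 to 1.62. Mcm7 was at 2.63 to 7.61 TPM and at 11.4, 15.0, 25.3, 21.8 and 11.4 TPM (FDR 0.00238). Of 11 heat shock genes 3 were higher (2 with the block), against 8.26% of all genes. Uncalled heat shock genes ranged from -0.47 for Hsp90aa1 to 0.64 for Hspe1. Hspa1b, an inducible HSP70, was at 8.62 to 52.8 TPM and at 42.8, 200, 530, 210 and 130 TPM (difference 2.85, FDR 0.00641), with WT 03 inside the single-digit range, and its co-chaperone Dnajb1 was at 19.3 to 23.2 TPM and 30.6 to 99.4 TPM (difference 1.20, FDR 0.0045). Hspa1a, which shares 65.4% of its 31-base words with other genes, differed by 2.37 and lost its call with the block (FDR 0.0882) and without WT 08. Of 17 immediate early genes 2 were higher, among them the transcription factor Fos, at 54.5 to 112 TPM and 130 to 481 TPM (difference 1.43, FDR 0.0135, and FDR 0.0879 with the block). That share is near the 8.26% of all genes, and with the block 0 immediate early genes were higher.

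Of 27 listed FOXO target genes, 26 were tested and 6 were higher, against 8.26% of all genes, with a median of 0.07. The uncalled members ranged from -0.92 for Il7r to 0.69 for Ccr7, so the list did not move as a whole. The 6 included S1pr1, the receptor that guides lymphocytes out of lymphoid organs, at 1.12 to 3.51 TPM and at 16.7, 15.7, 60.8, 16.6 and 16.2 TPM (difference 2.87, FDR 0.000322). Pik3ip1, an inhibitor of PI3K, was at 0.757 to 3.76 TPM and 8.42 to 38.1 TPM (difference 2.64, FDR 0.000557), and Sesn3, a sestrin, at 0.891 to 1.11 TPM and 2.6 to 8.15 TPM (difference 1.26, FDR 0.00223). With the replicate block 3 of the 26 were higher. The interferon-stimulated genes had 1 higher of 27 tested (0 with the block), and their median was 0.49. Lysosomal genes had 3 lower of 22 with a median of -0.35, a share near the 11.7% of all genes, and 0 were lower with the block, 11 without WT 03 and 9 with sample weights. Of the 13 mitochondrially encoded proteins 4 were lower, with a median of -0.47, among them mt-Atp6, an ATP synthase subunit (difference -1.03, FDR 0.0179, and FDR 0.0846 with the block). With the block 0 of the 13 were lower, and without WT 03 there were 8.

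Most called genes were in none of the lists. Genes of B cells, plasma cells, immunoglobulin V segments and class II presentation were 18.5% of the 1007 higher genes, ribosomal proteins 7.15%, T cell genes 1.89% and intestinal genes 1.29%, and all lists together 32.7%. All lists together held 4.06% of the 1429 lower genes. One lower gene outside the lists was Scand1, a SCAN domain protein, at 47.9 to 70.4 TPM (median 61.1) in the single-digit libraries and at 13.8, 12, 12.9, 18.1 and 13.5 TPM in the two-digit libraries (difference -2.06, SE 0.14, FDR 3.7e-06), with no overlap.

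The series difference was then compared between the genotypes. The interaction of series and genotype passed the threshold for 0 genes (0% of 12195) in limma, with 254 genes at an unadjusted p under 0.05 and a smallest FDR of 0.0571, for the microRNA gene Gm24979. The list medians had the same sign within WT and within FOXO3 KO libraries for B cell genes (2.63 and 3.76), T cell genes (1.49 and 1.73), goblet cell genes (2.50 and 2.59), ribosomal proteins (1.09 and 1.16) and macrophage genes (-0.74 and -1.56). Within WT, where 2 libraries were set against 3, 93 genes were higher and 50 lower, and within FOXO3 KO, with 3 against 3, 519 were higher and 806 lower. Both two-digit WT libraries had Ddx3y and almost no Xist, and all 3 single-digit WT libraries had Xist and almost no Ddx3y. Series and sex therefore cannot be told apart within WT.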

How the data were processed

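RNA of 11 PMN preparations was sequenced as paired ends. The authors deposited 1 table of 54164 genes with the TPM of each library. The table also holds the authors' mean normalized count per gene over all libraries (a signal, used here only as a listed property), and their own genotype comparison (log2 fold change, its standard error, a test statistic, p-value and adjusted p-value), which was not used. The submitters' processing notes name STAR 2.6.1d, kallisto 0.46.0, DESeq2, hg38 and mm10, with no roles. The columns with 2-digit numbers were assigned by genotype, since their numbers match no label.

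Log2(TPM + 1) was fitted with limma 3.58.1 in R 4.3.3 (genotype and series as terms, a mean-variance trend, Benjamini-Hochberg adjustment over the 12195 genes whose mean was 1 TPM or more), and the fit was tested on simulated data. Differences understate the change of low genes. The 4 markers also had two-sided exact permutation tests. No count-based test was run, and no interval could be given because the depth of each library is unknown. Gene classes, coordinates and the 31-base words shared between transcripts were taken from GENCODE M21 (GRCm38), in which 99% of the symbols were found, and sequences from that genome.

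Same-numbered WT and FOXO3 KO libraries of the single-digit series deviated together from their group means (correlations 0.51, 0.17 and 0.41, against -0.42 to 0.09 for other pairs). Deviations from a group mean cancel within each genotype, so the pairs are not independent and the correlations are a description. Values with the replicate block are therefore given as an alternative, beside the named genes whose call they end and beside the list counts they move by over 1.5 times.

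The series, the 51 gene lists and the markers were chosen with earlier results of these data known, and lists are described by counts and medians without tests of their own. Named genes were the markers, Foxo3, Xist, Ddx3y, in each direction the 12 called genes of smallest p and the 12 of largest difference, the 8 genes with the smallest p for the interaction, and in each list the 5 members with the largest difference and the 5 with the highest TPM. Cr2, Ly6g, Siglecg, Rpl5, Rps2, Rps12, Rps13, Rps14, Rps6, Rps13-ps1, Gimap6, Grip2, Marcks and Slc7a2 were named after their values were seen. The alternatives were other pseudocounts, filters, thresholds, normalizations, covariates, sample weights, each genotype alone, the block and each library left out. The comparisons limited to protein-coding genes or to genes with under 10% of shared 31-base words, and the rescaling without ribosomal protein genes, were added after seeing the data.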

Additional observations from a re-analysis of the deposited data

Results flagged for a closer look

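Of 256 groups of library values checked for a single library far from the others, 38 had one, where chance alone gives about 1 in 20, or 12.8. Most of these were FOXO3 KO 05 or WT 03 among the 5 two-digit libraries. The groups are not independent, since genes of a list and their sum often flag the same library. The 38 against 12.8 is therefore no test.

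FOXO3 KO 05 lay far above the other two-digit libraries for B cell and plasma cell genes, at 76.0 TPM for Fcmr, 560.1 TPM for Ly6d, 11.67 TPM for Ighg2b and 31.46 TPM for Derl3, a protein of endoplasmic reticulum degradation. It did so for the mast cell proteases Mcpt4 (83.2 TPM) and Tpsb2 (88.34 TPM), for S1pr1 (60.78 TPM) and for the co-chaperone Dnajb1 (99.43 TPM), and the summed heat shock genes reached 5158 TPM there. Ribosomal proteins had the same library on top, at 2321 TPM for Rps28, 694.6 TPM for Rpl10a, 7071 TPM for Rps27, 1466 TPM for Rps13 and 1883 TPM for Rps6, with a ribosomal protein sum of 133200 TPM. Among pseudogenes, FOXO3 KO 05 had 21.54 TPM of Rpl14-ps1 and 2.41 TPM of Gm10288 where the other two-digit libraries were at or near 0.

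WT 03 lay far above the other two-digit libraries for macrophage genes, at 311.4 TPM for C1qb, 139.2 TPM for C1qc and 30.07 TPM for Mrc1, with a macrophage sum of 1415 TPM. It also stood out for Pf4 (384.3 TPM) and the platelet sum (434.3 TPM), for the sum of small intestinal enterocyte genes (68.62 TPM) and, at a level close to 0, for Gm10221 (0.000221 TPM). The enterocyte sum is mostly Anpep.

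FOXO3 KO 09 stood apart for Hbb-bs (4043 TPM), the erythroid sum (8375 TPM) and Gm15899 (23.72 TPM), and FOXO3 KO 06 for Rps6-ps4 (0.002163 TPM). Among the single-digit libraries, WT 1 was highest for C1qb (290 TPM), Igkv14-126 (828.2 TPM), Krt8 (0.3683 TPM) and Sprr2a2 (0.4915 TPM) and lowest for the T cell receptor V segments (4.752 TPM). FOXO3 KO 1 was highest for Hbb-bs (86.85 TPM) and the erythroid sum (196.8 TPM), and FOXO3 KO 3 for Ddx3y (42.91 TPM) and Lgals4 (3.493 TPM).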

How the results depend on the processing

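With the replicate block, which follows the pairing of same-numbered libraries, the higher genes numbered 610 and the lower genes 500, against 1007 and 1429. The higher genes numbered 587 at a mean of at least 5 TPM, 1584 with size factors, 93 in WT alone, 519 in FOXO3 KO alone, 648 among genes with under 10% of shared 31-base words, and 210 at FDR < 0.001 with a log2 difference over 1.5. The lower genes numbered 50 in WT alone, 806 in FOXO3 KO alone, 3099 with sample weights and 56 at the stricter threshold. Leaving out each library in turn gave 736 to 1067 higher and 671 to 2655 lower genes. The interaction of series and genotype passed for 4 genes with a pseudocount of 0.1, 8 without a filter, 1 at a mean of at least 5 TPM, 1 with Xist as a covariate, 1 with sample weights, and 0 to 3 on leaving out each library.

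C1qb was called at -0.76 with size factors, -1.34 in FOXO3 KO alone, -1.19 with sample weights and -0.92 among protein-coding genes (fewer genes tested), and ranged from -1.32 to -0.73 on leaving out each library. Cd79a was not called in WT alone (3.70). Among the named genes, signs turned only for some that were not called. Ly6g was at 0.035 with quantile normalization, 0.011 in WT alone and between -0.51 and 0.21 on leaving out each library. Rpl5 was at 0.10 with quantile normalization, 0.14 with size factors, 0.013 without the genotype term, 0.37 with Xist, 0.007 in WT alone, 0.059 after rescaling without ribosomal protein genes, and between -0.24 and 0.18 on leaving out each library. S100a8 was at -0.078 with Xist, -0.16 in WT alone and between -0.093 and 0.23 on leaving out each library. Rps14 was at -0.27 in WT alone, -0.15 with sample weights and between -0.05 and 0.30 on leaving out each library. Ddx3y was at -1.80 with Xist and -0.50 in FOXO3 KO alone, and Foxo3 at -0.017 with sample weights. The cause of these changes was not tested. The calls of Lypd8 and Zg16 were kept under all alternatives run. Without depths, a gene listed at 0 has no counting limit.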

Other observations

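The Gimap genes, GTPases that support lymphocyte survival, were noticed after the data were seen. All 8 that were tested were higher in the two-digit libraries, by 1.14 to 2.71 on the log2 scale, against 8.26% of all genes higher. Gimap6 was at 11.8 to 30.8 TPM (median 21.2) in the single-digit libraries and at 102, 89.3, 284, 148 and 96.2 TPM in the two-digit libraries (difference 2.68, FDR 0.000298), with no overlap and FOXO3 KO 05 again highest.

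Of the genes outside every list, a few with high levels also separated the series. Slc7a2, a transporter of arginine and other cationic amino acids, was at 79.8 to 225 TPM (median 139) in the single-digit libraries and at 22.1, 5.96, 13.6, 12.4 and 18.2 TPM in the two-digit libraries (difference -3.34, FDR 4.18e-05). Marcks, a protein kinase C substrate at the cell membrane, was at 188 to 224 TPM and at 109, 71.7, 54.7, 63.3 and 90.6 TPM (difference -1.41, FDR 0.000331). Grip2, a scaffold protein known from synapses, was at 56.6 to 97.5 TPM and at 411, 327, 199, 558 and 322 TPM (difference 2.23, FDR 0.000227). None of these 3 overlapped between the series, and the order of the two-digit libraries differed, since FOXO3 KO 05 was lowest for Marcks and for Grip2.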
